A study of Mus musculus with 4 samples.

Results

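Levels of 10 genes were compared between classes of islet T cells: the receptors Cd28, Icos, Cd27, Tnfrsf4, Tnfrsf9, Tnfrsf18 and Tnfrsf1b, and the ligands Cd40lg, Tnfsf8 and Tnfsf11. The members are a named list, and all 10 were found among the 27998 genes of the count matrices. Levels and ratios were taken for every member without a filter on low values. Counts past 1.5-fold took only members with 50 or more UMIs, which were 8 of 10 in the comparison of ages in Cd8-gated cells. T cells came from the pancreatic islets of female mice of the NOD strain, which develops autoimmune diabetes spontaneously, and the mice of both groups were pre-diabetic, with no treatment or allele named in the labels. Cells positive for the T cell receptor beta chain that excluded DAPI, a dead-cell stain, were sorted, and droplet-based 5′ messenger RNA and T cell receptor libraries were made from mice aged 8 weeks and from mice aged 16 weeks. There was 1 library of each kind per age and the number of mice behind each is not given, so differences between mice cannot be separated from differences between ages or libraries. Where values come in pairs, the first is for 8 weeks and the second for 16 weeks. All intervals below are 95% intervals that cover counting error only. No test between ages was possible, and none was run between classes, which could be paired only within the 2 libraries.

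T cells need a second signal beside the antigen receptor. CD28 gives that signal when it binds CD80 or CD86 on antigen-presenting cells, and its relative ICOS, which binds ICOS ligand, sustains follicular helper and regulatory T cells. Receptors of the tumour necrosis factor (TNF) family, among them OX40 (Tnfrsf4), 4-1BB (Tnfrsf9), GITR (Tnfrsf18), CD27 and TNF receptor 2 (Tnfrsf1b), recruit TRAF adaptor proteins and activate NF-kB, and several of them are known markers of activated and regulatory T cells. The TNF family ligands made by T cells act on other cells: CD40 ligand (Cd40lg) on B cells and antigen-presenting cells, CD30 ligand (Tnfsf8) on CD30-bearing lymphocytes, and RANKL (Tnfsf11) on dendritic cells and osteoclast precursors.

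In the GENCODE M21 annotation of GRCm38, Cd28 (ENSMUSG00000026012, chr1:60716800-60773359) and Icos (ENSMUSG00000026009, chr1:60977927-61000320) lie on the plus strand, 204567 bases apart with Ctla4 as the protein-coding gene between them. Tnfrsf4 (ENSMUSG00000029075, chr4:156013843-156016612) and Tnfrsf18 (ENSMUSG00000041954, chr4:156026164-156028895) are neighbours on the plus strand, 9551 bases apart with no protein-coding gene between them. Tnfrsf9 (ENSMUSG00000028965, chr4:150914562-150946102, plus strand), Tnfrsf1b (ENSMUSG00000028599, chr4:145213463-145246870, minus strand) and Tnfsf8 (ENSMUSG00000028362, chr4:63831308-63861347, minus strand) share the chromosome with them. Cd27 (ENSMUSG00000030336, chr6:125232622-125237010) and Tnfsf11 (ENSMUSG00000022015, chr14:78277445-78308043) are on the minus strand, and Cd40lg (ENSMUSG00000031132, chrX:57212143-57224042) is on the plus strand. Cd27 overlaps Vamp1, Tnfrsf9 overlaps Camta1 and Tnfrsf18 overlaps the antisense gene Gm16008, each on the opposite strand. The strand setting of the authors' counting is not given in the sources used here, so reads of these pairs may not have been told apart.

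Promoter windows of 7 members were found in RefSeq (GRCm38.p6). The bases before the start that lie in no annotated exon are printed for Tnfrsf9, Tnfrsf18 and Tnfrsf1b, which were higher in Foxp3-positive cells at both ages, and for Tnfsf11, which was lower there. Capitals mark a match to a searched motif on either strand. The motifs were the kappaB consensus, TGANTCA (an AP-1 site), TGTTTAC (a forkhead site) and TATAAA. The first Tnfrsf9 sequence (chr4:150927948-150927974, plus strand) starts 51 bases before the downstream of 2 RefSeq starts of that gene and lies in an exon annotated in GENCODE. Its capitals mark overlapping kappaB matches. The second precedes the upstream start (chr4:150919905-150920154, plus strand). The others are Tnfrsf18 (chr4:156026072-156026163, plus strand), Tnfrsf1b (chr4:145246871-145247120, minus strand) and Tnfsf11 (chr14:78308044-78308293, minus strand, capitals at TATAAA read on the opposite strand).
Tnfrsf9 kappaB match: gagcagctGGGGATTTCCCaggaggcc
Tnfrsf9 upstream start: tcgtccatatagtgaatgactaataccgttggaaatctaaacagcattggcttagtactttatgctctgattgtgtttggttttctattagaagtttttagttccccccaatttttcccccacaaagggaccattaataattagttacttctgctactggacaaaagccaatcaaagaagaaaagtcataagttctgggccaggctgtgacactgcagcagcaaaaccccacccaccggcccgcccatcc
Tnfrsf18: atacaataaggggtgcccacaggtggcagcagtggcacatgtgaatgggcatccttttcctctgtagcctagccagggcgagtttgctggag
Tnfrsf1b: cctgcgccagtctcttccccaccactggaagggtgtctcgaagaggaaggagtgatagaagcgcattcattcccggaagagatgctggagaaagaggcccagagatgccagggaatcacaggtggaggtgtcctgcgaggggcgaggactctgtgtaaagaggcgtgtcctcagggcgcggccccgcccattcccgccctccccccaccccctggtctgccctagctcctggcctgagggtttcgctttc
Tnfsf11: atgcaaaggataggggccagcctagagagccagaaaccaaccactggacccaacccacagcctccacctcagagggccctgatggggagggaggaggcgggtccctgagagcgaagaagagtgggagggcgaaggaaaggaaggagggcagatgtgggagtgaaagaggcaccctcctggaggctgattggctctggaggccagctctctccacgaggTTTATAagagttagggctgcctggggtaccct

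Over the 250 bases before each start, the Tnfrsf9 window of the downstream start held the kappaB consensus, which 3.9% of 32851 RefSeq windows held, and TGANTCA, which 6.75% held. TATAAA was present in 12.4% of the windows and TGTTTAC in 3.17%, and no window of a member held TGTTTAC. These matches describe the letters of the windows and say nothing of binding.

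The RNA libraries held 8659371 UMIs (unique molecular identifiers, 1 per captured transcript molecule) in 2043 barcodes at 8 weeks and 8183747 UMIs in 2107 barcodes at 16 weeks. After removal of poor cells and of clusters led by pancreatic acinar or B cell genes, 1828 and 1879 T cells remained, and 5 barcodes occurred in both libraries. Cells were classed by their UMIs. A Cd4-gated cell had a Cd4 UMI and none of Cd8a or Cd8b1, and was Foxp3-positive if it had a UMI of Foxp3, the defining transcription factor of regulatory T cells, or Foxp3-undetected if not. A Cd8-gated cell had a Cd8a or Cd8b1 UMI and none of Cd4. At 8 and 16 weeks these gates gave 641 and 633 Foxp3-undetected, 115 and 89 Foxp3-positive and 294 and 315 Cd8-gated cells, while 698 and 755 cells had no UMI of Cd4 or Cd8 and entered no class comparison. Another 80 and 87 cells held UMIs of both Cd4 and Cd8. They were deep (median 9091 and 8568 UMIs) and entered no comparison of classes or ages. Regulatory T cell markers summed to 1236 and 1176 CPM, the UMIs of a gene or list as a share of all UMIs of the class scaled to 1e+06, in Foxp3-positive cells against 304 and 215 CPM in Foxp3-undetected cells, and CD8 markers to 8650 and 7661 CPM in Cd8-gated cells. The regulatory list holds Foxp3 and the CD8 list Cd8a and Cd8b1, which are genes of the gates, so these sums were in part fixed by the gates. B cell markers (5 genes, 2 or 3 of them with a UMI) summed to 78.6 and 87.5 CPM in Foxp3-positive, 20.6 and 18.3 CPM in Foxp3-undetected and 45.7 and 51.2 CPM in Cd8-gated cells. Myeloid markers (6 genes, 2 to 6 with a UMI) summed to 297 and 310 CPM, 220 and 219 CPM, and 203 and 167 CPM in that order. The defining B cell marker Ms4a1 was at 0 in all 3 classes and the myeloid Csf1r in Foxp3-positive and Cd8-gated cells, and the part of these cells in the class ratios was not tested. Foxp3-positive cells were deeper (median 5778 and 6003 UMIs) than Foxp3-undetected cells (3196 and 3078) and Cd8-gated cells (3377 and 3259). Cell division markers also summed higher in them, to 2190 and 1102 CPM against 958 and 520 CPM. A UMI of Foxp3 is found more readily in a deep cell, and 63 and 68 Foxp3-undetected cells fell in regulatory T-like clusters.

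**Figure D1:**
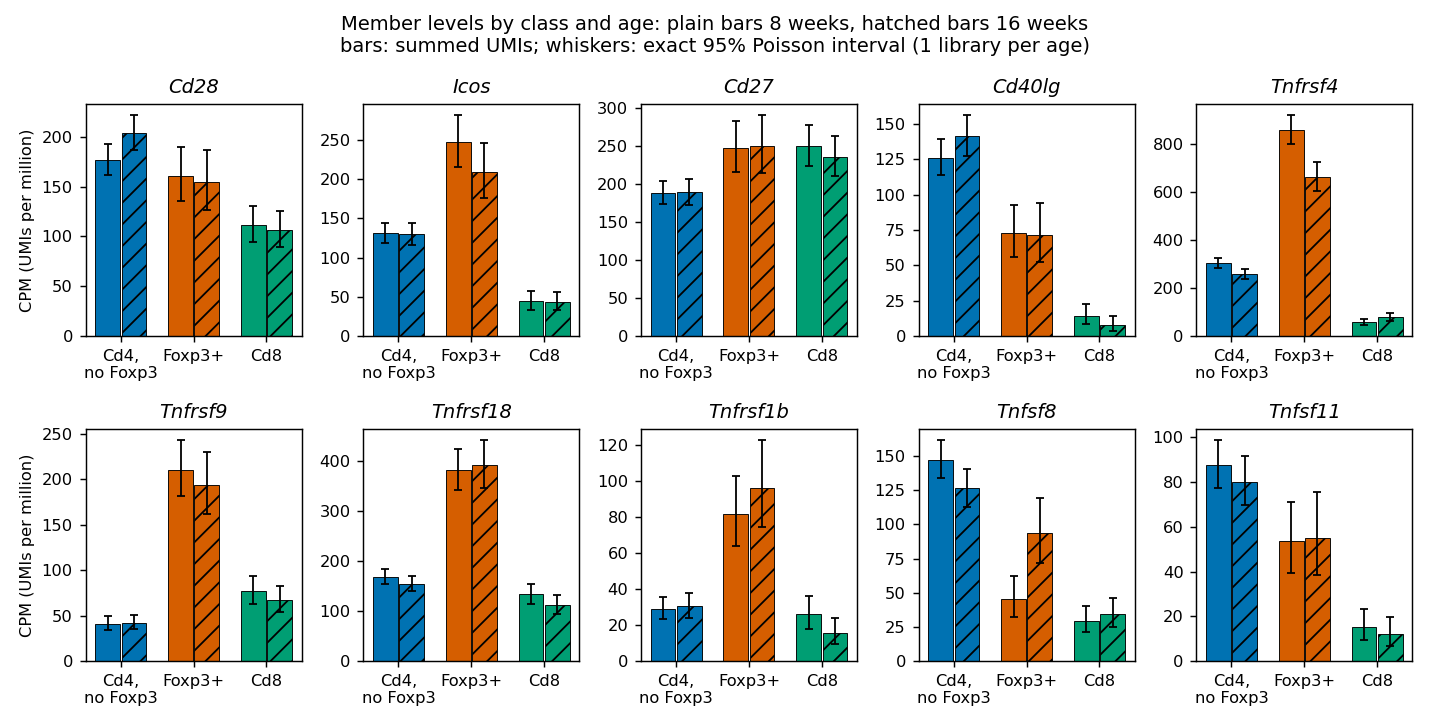
Level of each member (CPM of the class) in Cd4-gated Foxp3-undetected, Foxp3-positive and Cd8-gated cells at 8 weeks (plain bars) and 16 weeks (hatched bars), with exact 95% Poisson intervals. Tnfrsf4, Tnfrsf9, Tnfrsf18, Tnfrsf1b and Icos are highest in Foxp3-positive cells at both ages, and Cd40lg and Tnfsf11 are lowest in Cd8-gated cells.

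By summed UMIs, the 5 TNF family receptors among the members and Icos were higher in Foxp3-positive than in Foxp3-undetected cells. The 3 ligands among the members were lower there by the same measure, although the direction of Tnfsf11 at 16 weeks changed with the weighting. Of the 10 members, 6 were higher in Foxp3-positive than in Foxp3-undetected cells at both ages: Icos, Cd27, Tnfrsf4, Tnfrsf9, Tnfrsf18 and Tnfrsf1b. Of all genes with 50 or more UMIs, 58.5% were higher there at 8 weeks and 61.6% at 16 weeks, so that count is near the background. A ratio of at least 1.5-fold was reached upward by 5 members at each age, where 9.61% of those 6412 genes reached it at 8 weeks and 12% of 5971 at 16 weeks. Downward it was reached by 3 members at 8 weeks and 1 at 16 weeks, where 6.07% and 5.61% of genes reached it. The median log2 ratio over the members was 0.66 and 0.55, beside 0.08 and 0.11 over all genes tested.

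Tnfrsf9, which encodes 4-1BB and marks recent activation, had the highest ratio. Its level in Foxp3-positive cells was 211 CPM at 8 weeks (181 to 243) and 194 CPM at 16 weeks (162 to 231), against 41.5 and 42.7 CPM in Foxp3-undetected cells. The log2 ratios were 2.34 (2.01 to 2.68) and 2.18 (1.81 to 2.56), and the intervals of the levels did not overlap at either age. Tnfrsf4, which encodes OX40, stood at 859 and 663 CPM in Foxp3-positive cells and at 305 and 258 CPM in Foxp3-undetected cells, log2 ratios of 1.5 (1.35 to 1.64) and 1.36 (1.19 to 1.54). Tnfrsf18, the gene of the co-receptor GITR, stood at 381 and 392 CPM against 169 and 155 CPM, log2 ratios of 1.17 (0.97 to 1.37) and 1.34 (1.11 to 1.57). Tnfrsf1b, whose product binds membrane-bound TNF, stood at 82.0 and 96.4 CPM against 29.2 and 30.5 CPM, log2 ratios of 1.49 and 1.66. All 4 receptors were thus higher in Foxp3-positive cells in both libraries. When cells were first thinned to 1700 UMIs and then gated, 29 and 24 Foxp3-positive cells were left, and the log2 ratio of Tnfrsf9 was 1.55 and 3.56 and that of Tnfrsf1b 0.77 and 3.01.

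The CD28 family members parted. Icos stood at 247 and 209 CPM in Foxp3-positive cells against 131 and 130 CPM in Foxp3-undetected cells, log2 ratios of 0.92 (0.67 to 1.16) and 0.69 (0.40 to 0.98). Cd28 stood at 161 and 154 CPM against 177 and 204 CPM, log2 ratios of -0.13 (-0.42 to 0.13) and -0.40 (-0.72 to -0.10), so a difference was not detectable at 8 weeks. Cd27, the receptor of CD70, stood at 248 and 251 CPM against 189 and 189 CPM, log2 ratios of 0.40 and 0.41 with intervals above 0 at both ages.

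The ligands were lower in Foxp3-positive cells. Cd40lg stood at 72.9 and 71.2 CPM in these cells against 126 and 141 CPM in Foxp3-undetected cells, log2 ratios of -0.78 (-1.20 to -0.41) and -0.98 (-1.46 to -0.55). At 8 weeks the Cd40lg ratio was -1.47 with each cell given equal weight and -1.80 without cells that held 2 or more beta chains. Tnfsf11 stood at 53.5 and 54.9 CPM against 87.3 and 80.1 CPM, log2 ratios of -0.69 and -0.53. With each cell given equal weight the Tnfsf11 ratios were -0.08 and 0.13, so its direction changed with the weighting at 16 weeks, and without the dividing cluster it was -0.15 at 8 weeks. Tnfsf8 stood at 45.5 CPM in Foxp3-positive cells at 8 weeks and at 93.4 CPM at 16 weeks, against 147 and 126 CPM, log2 ratios of -1.68 (-2.20 to -1.22) and -0.42 (-0.85 to -0.04). When a cell in a regulatory T-like cluster also counted as regulatory, the Tnfsf8 ratio at 8 weeks was -0.76, and after thinning before the gates it was 0.30 at 16 weeks.

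**Figure D2:**
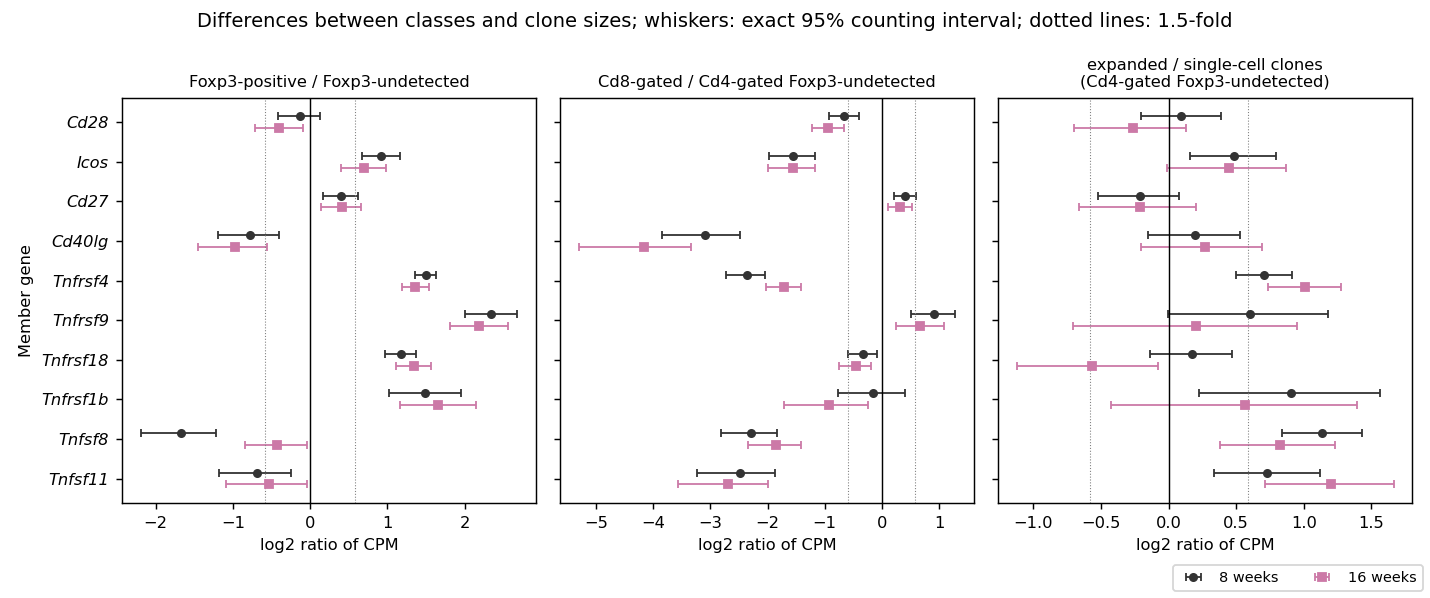
Log2 ratio of CPM for each member at 8 weeks (circles) and 16 weeks (squares) in Foxp3-positive over Foxp3-undetected cells, Cd8-gated over Cd4-gated Foxp3-undetected cells, and expanded over single-cell clones of Foxp3-undetected cells, with exact 95% counting intervals and dotted lines at 1.5-fold. Tnfrsf9 is highest on the left, at 2.34 and 2.18, and Cd40lg is lowest in the middle, at -3.09 and -4.16.

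Cd8-gated cells had less of most members than Cd4-gated Foxp3-undetected cells. Only Cd27 and Tnfrsf9 were higher, 2 of 10 members at each age, where 45.1% and 42.7% of genes were higher. A ratio of at least 1.5-fold downward was reached by 6 members at 8 weeks and 7 at 16 weeks, where 8.41% of 6673 genes and 8.5% of 6367 genes reached it. Upward it was reached by 1 member at each age, Tnfrsf9, where 4.92% and 3.91% of genes reached it. The median log2 ratio over the members was -1.11 and -1.25, beside -0.03 and -0.06 over all genes tested.

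Cd40lg, the helper ligand for B cells, had the lowest ratio, with 14.5 CPM in Cd8-gated cells at 8 weeks (20 UMIs) and 7.53 CPM at 16 weeks (10 UMIs) against 126 and 141 CPM. The log2 ratios were -3.09 (-3.85 to -2.47) and -4.16 (-5.30 to -3.34). Tnfsf11 stood at 15.2 and 12.1 CPM in Cd8-gated cells, log2 ratios of -2.49 and -2.69. Tnfsf8 stood at 29.7 and 34.7 CPM, log2 ratios of -2.29 and -1.85. All 3 ligands were lower in Cd8-gated cells than in either Cd4-gated class at both ages, although the Tnfsf8 intervals of Cd8-gated and Foxp3-positive cells overlapped at 8 weeks. Among the receptors, Tnfrsf4 stood at 58.7 and 78.4 CPM in Cd8-gated cells, log2 ratios of -2.37 (-2.72 to -2.05) and -1.71 (-2.03 to -1.42). At 8 weeks this Tnfrsf4 ratio was -3.07 without cells that held 2 or more beta chains and -1.55 after thinning before the gates, which also moved Cd40lg to -2.39 at 16 weeks. Icos stood at 44.2 and 43.7 CPM, with a log2 ratio of -1.56 at each age, and Cd28 at 112 and 106 CPM, log2 ratios of -0.66 and -0.94.

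The remaining receptors were Cd27, Tnfrsf18, Tnfrsf1b and Tnfrsf9. Cd27 stood at 250 and 236 CPM in Cd8-gated cells, log2 ratios of 0.41 (0.21 to 0.60) and 0.32 (0.11 to 0.52). Tnfrsf18 stood at 134 and 112 CPM, log2 ratios of -0.33 and -0.46. Tnfrsf1b stood at 26.1 and 15.8 CPM from 36 and 21 UMIs, log2 ratios of -0.15 (-0.77 to 0.41) and -0.92 (-1.72 to -0.24). Tnfrsf9 stood at 77.5 and 67.8 CPM, log2 ratios of 0.90 (0.52 to 1.29) and 0.67 (0.25 to 1.08). A single cell gave 22.4% and 23.3% of those Tnfrsf9 UMIs, and after thinning before the gates the ratios were 0.30 and -0.17, neither of which reached 1.5-fold. Nor was it reached with each cell given equal weight (0.56 and 0.39) or with clusters also used for the lineage (0.55 and 0.42). It was also not reached at 8 weeks without cells that held 2 or more beta chains (0.42). At 16 weeks the ratio was 0.45 without the top cell of each class.

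Shares of cells with a UMI followed the same order for most members once cells were thinned to 1700 UMIs, which left out between 2 and 50 shallower cells per class and age. Cd28, Cd27, Tnfsf8 and Tnfsf11 did not keep it at every age. Tnfsf11 at 16 weeks was detected in 10.3% (4.84 to 18.7) of Foxp3-positive and 9.21% (7.03 to 11.8) of Foxp3-undetected cells. Cd28 at 8 weeks was detected in 29.0% and 25.0% of them. Tnfsf8 at 8 weeks was detected in 4.67% of Foxp3-positive and 5.3% of Cd8-gated cells. Tnfrsf4 was detected in 54.2% (44.3 to 63.9) and 54.0% (43.0 to 64.8) of Foxp3-positive cells, 23.5% and 20.7% of Foxp3-undetected cells and 6.01% and 5.32% of Cd8-gated cells. Before thinning these shares were 78.3% and 87.6%, 38.4% and 30.6%, and 9.86% and 9.52%. Tnfrsf18 was detected after thinning in 52.3% and 44.8%, 24.9% and 21.9%, and 23.3% and 19.3% of the 3 classes in that order, and before it in 81.7% and 88.8%, 44.5% and 37.8%, and 40.8% and 34.9%. Tnfrsf9 was detected after thinning in 24.3% and 24.1% of Foxp3-positive cells, 5.25% and 2.96% of Foxp3-undetected cells and 5.3% and 3.32% of Cd8-gated cells, and before it in 45.2% and 48.3%, 10.1% and 7.11%, and 10.9% and 8.89%. Cd40lg was detected after thinning in 20.3% and 18.9% of Foxp3-undetected cells and in 1.77% and 2.33% of Cd8-gated cells, where it was 37.3% and 34.6% against 4.76% and 2.22% before. Droplets also hold free RNA, and no cluster could serve as a class without T cell transcripts: of 91 cells in the acinar-like cluster, 87 had a Cd3e UMI and 73 a receptor beta chain. Their thinned shares were 7.23% for Tnfrsf4, 25.3% for Tnfrsf18, 4.82% for Tnfrsf9 and 16.9% for Cd40lg (83 cells, median depth 2823 UMIs before thinning), and the shares of Tnfrsf4, Tnfrsf18 and Cd40lg in Cd8-gated cells, of Tnfrsf18 in Foxp3-undetected cells, and of Tnfrsf9 in both classes at 16 weeks were at or below these values.

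At the same depth, Foxp3-positive cells held the most members at once. The mean number of members detected per cell was 2.53 and 2.6 in Foxp3-positive cells, 1.78 and 1.59 in Foxp3-undetected cells and 1.04 and 0.927 in Cd8-gated cells. At least 3 members were detected in 46.7% and 46.0% of Foxp3-positive cells (50 of 107 and 40 of 87), 25.4% and 22.0% of Foxp3-undetected cells (150 of 591 and 134 of 608) and 7.42% and 5.32% of Cd8-gated cells (21 of 283 and 16 of 301). None of the 10 was detected in 5.61% and 9.2%, 15.9% and 21.2%, and 32.2% and 38.2% of the classes in that order.

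Cells were also clustered on genes other than the 10 members, and several members differed widely between clusters. In 2 naive T-like clusters, marked by Lef1 and Ccr7, Icos, Tnfrsf4, Tnfrsf9, Tnfrsf1b and Tnfsf11 did not exceed 18.4 CPM: in the larger one Icos stood at 8.59 and 10.7 CPM, Tnfrsf4 at 18.4 and 7.12 CPM and Tnfrsf9 at 2.45 CPM at 8 weeks. Those cells kept Cd27 (255 and 221 CPM), Cd28 (130 and 117 CPM), Cd40lg (124 and 128 CPM) and Tnfrsf18 (129 and 126 CPM). Tnfrsf9 had 0 UMIs of 842967 in that cluster at 16 weeks, which allows up to 3.56 CPM. In the unnamed cluster led by Tmem108, Ccr9 and Cd8b1, 147 of 174 and 186 of 206 cells were Cd8-gated. It had Tnfrsf4 at 1.87 and 5.75 CPM, Cd27 at 245 and 264 CPM, Cd28 at 50.6 and 64.6 CPM and Cd40lg at 15 and 4.31 CPM.

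The follicular helper T-like cluster, marked by Cxcr5, Il21 and Cd200, had the highest Tnfsf8 of the named clusters at both ages (241 and 322 CPM), with Tnfsf11 at 155 and 183 CPM and Cd28 at 246 and 284 CPM. The larger regulatory T-like cluster, marked by Foxp3, Ikzf4 and Capg, had Tnfrsf4 at 924 and 698 CPM, Tnfrsf18 at 443 and 345 CPM, Icos at 248 and 254 CPM and Tnfrsf1b at 100 and 111 CPM. The smaller one, marked by Gpr83 and Il2ra, kept Tnfrsf18 (343 and 270 CPM) and Cd27 (321 and 333 CPM), while its Tnfrsf4 was 256 and 319 CPM and its Tnfrsf9 54.5 and 58.8 CPM. An unnamed cluster of 57 and 59 cells, led by Utf1, Nefh and Crtam, had the highest Tnfrsf9 of all clusters (251 and 278 CPM) and Tnfrsf4 at 838 and 353 CPM.

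**Figure D3:**
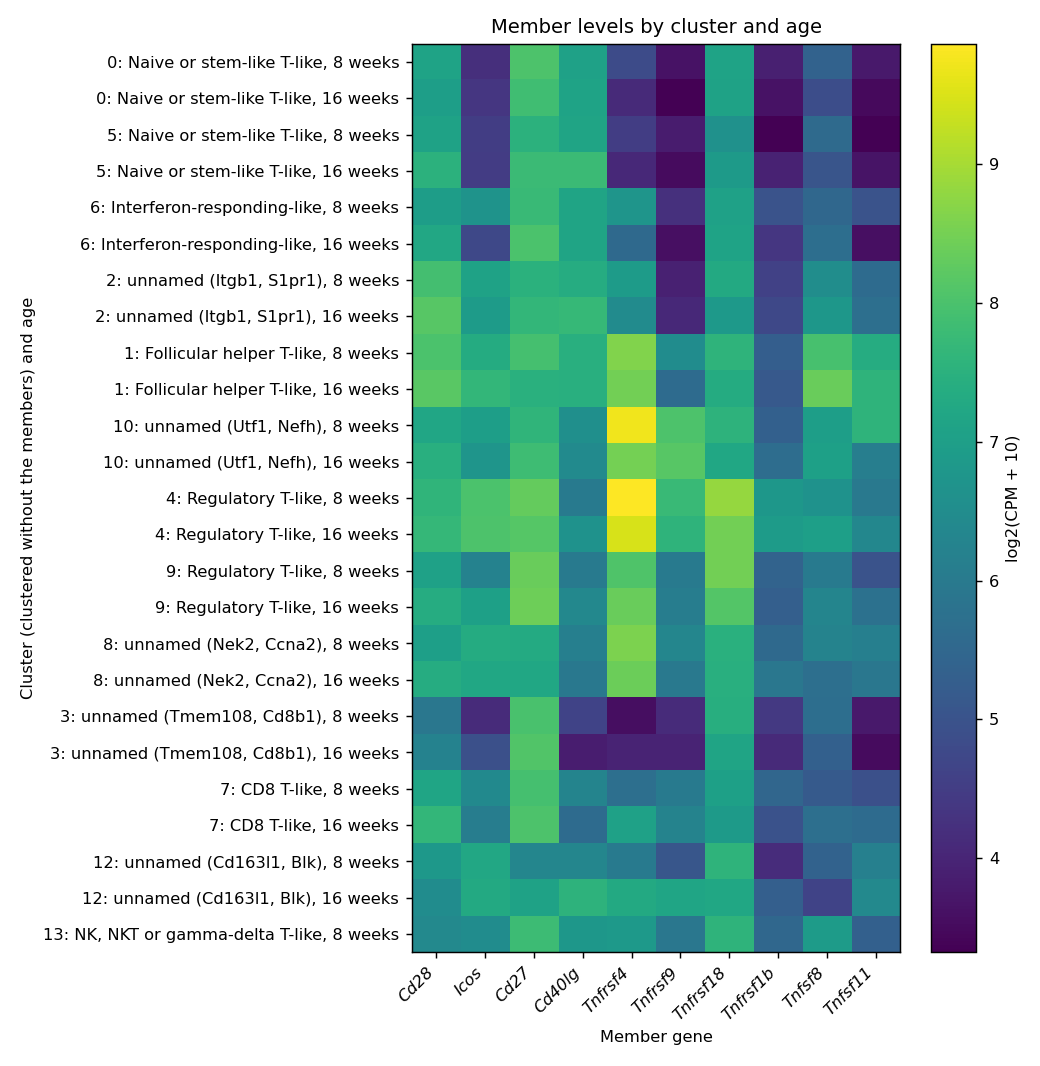
Heat map of log2(CPM + 10) of each member (columns) in each cluster and age with 20 or more cells (rows), clustered without the members. Tnfrsf4, Icos, Tnfrsf9, Tnfrsf1b and Tnfsf11 are dark in the naive T-like clusters, Tnfsf8 is brightest in the follicular helper T-like cluster (241 and 322 CPM), and Tnfrsf4 is brightest in the regulatory T-like cluster 4 (924 and 698 CPM).

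Across these 25 cluster and age sums, the closest pairs of members were Icos with Tnfsf11 (Pearson's r = 0.89), Icos with Tnfrsf4 (0.88), Tnfrsf4 with Tnfsf11 (0.86), Tnfrsf4 with Tnfrsf1b (0.85) and Tnfrsf4 with Tnfrsf9 (0.85). Cd27 stood apart, with r = -0.28 against Tnfsf11 and -0.24 against Cd40lg. The sums share libraries and differ in depth, so these values are a description only. The nearest other genes by the same measure were Maf for Icos (0.93), Nfil3 and Ctla4 for Tnfrsf4 (0.93 and 0.91), Cxcr5 for Tnfsf8 (0.85), Ikzf4 and Foxp3 for Tnfrsf18 (0.83 and 0.80), Zbtb7b and Cd4 for Cd40lg (0.81 and 0.76), Tbc1d4 for Tnfsf11 (0.93), Samsn1 for Tnfrsf1b (0.91), Ssr4 for Tnfrsf9 (0.90), Dnpep for Cd27 (0.87) and Gm5424 for Cd28 (0.81). These neighbours depended on the clustering. With the coarser clusters of resolution 0.6 (15 sums), 0 of the 3 nearest genes were shared for Cd28, 2 of 3 for Cd40lg and 1 of 3 for each of the other 8 members. Ctla4, Cxcr5, Foxp3, Cd4 and Gm5424 were then no longer among the nearest 3 of the members given, whereas Maf, Nfil3, Ikzf4, Zbtb7b, Tbc1d4, Samsn1, Ssr4 and Dnpep were.

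Clones were defined by identical alpha and beta chains within a library. Clones of 2 or more cells numbered 64 (197 cells) at 8 weeks and 37 (96 cells) at 16 weeks, among 1336 and 1358 cells with both chains. In Foxp3-undetected cells, 114 and 54 cells were in such expanded clones and 380 and 437 were the only cell of their clone. Of the 10 members, 9 at 8 weeks and 7 at 16 weeks were higher in the expanded cells, where 56.3% and 57.7% of genes were. At least 1.5-fold was reached upward by 5 and 3 members, where 8.26% of 5120 genes and 13.4% of 4647 genes reached it, and downward by 0 members at both ages, where 6.58% and 10.7% of genes reached it.

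Tnfsf8 stood at 244 CPM in expanded and 111 CPM in single-cell clones at 8 weeks and at 190 and 108 CPM at 16 weeks, log2 ratios of 1.14 (0.84 to 1.43) and 0.82 (0.38 to 1.23). Tnfrsf4 stood at 424 against 260 CPM and 485 against 241 CPM, log2 ratios of 0.71 (0.50 to 0.91) and 1.01 (0.74 to 1.27). Tnfsf11 stood at 123 against 74.4 CPM and 165 against 71.9 CPM, log2 ratios of 0.73 (0.33 to 1.12) and 1.20 (0.71 to 1.66). These 3 had intervals above 0 at both ages. Tnfrsf1b had log2 ratios of 0.91 (0.23 to 1.57) and 0.57 (-0.43 to 1.39), Tnfrsf9 of 0.60 (-0.00 to 1.18) and 0.20, and Icos of 0.48 (0.16 to 0.79) and 0.45 (-0.01 to 0.86). The ratios of Cd28 (0.09 and -0.26), Cd27 (-0.22 and -0.21) and Cd40lg (0.19 and 0.27) had intervals that held 0, and Tnfrsf18 had 0.17 and -0.56 (-1.12 to -0.08). Without the largest clone the Tnfsf8 ratio at 16 weeks was 0.49, and with clones defined by the beta chain alone the ratios of Tnfrsf4 and Tnfsf11 at 8 weeks were 0.46 and 0.49. After thinning before the gates the Tnfsf11 ratio at 16 weeks was 0.24.

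Expanded and single-cell clones also differed in the clusters that held them. Of the expanded Foxp3-undetected cells, 63.2% at 8 weeks and 53.7% at 16 weeks were in the follicular helper T-like cluster, against 19.5% and 17.8% of single-cell clones, and 0 of 114 and 0 of 54 were in naive T-like clusters, against 30.8% and 38.4%. The dividing cluster held 14% and 18.5% of expanded against 5.53% and 3.43% of single-cell clones, and regulatory T-like clusters 14.9% and 22.2% against 8.95% and 11.4%. Cell division markers summed to 1598 and 1759 CPM in expanded and to 751 and 401 CPM in single-cell clones, with all 6 genes higher at both ages. Median depth was 5470 and 4656 UMIs in clones of 2 to 4 cells, 4644 and 5096 in clones of 5 or more, and 3318 and 3247 in single-cell clones. The part of depth and cell division in the ratios was not tested beyond the alternatives given. Within the follicular helper T-like cluster alone, 2 of 10 members at 8 weeks (72 against 74 cells) and 5 of 10 at 16 weeks (29 against 78 cells) were higher in expanded clones. No share over all genes was taken within this cluster, so these counts have no background and no result about the members is read from them. There Tnfrsf4 stood at 312 CPM in expanded and 505 CPM in single-cell clones at 8 weeks, a log2 ratio of -0.69 (-1.05 to -0.35), and at 497 against 336 CPM at 16 weeks, 0.57 (0.10 to 1.02). Tnfsf8 had log2 ratios of 0.23 (-0.20 to 0.66) and 0.63 (0.10 to 1.14) there, and Tnfsf11 of -0.02 and 0.49 with intervals that held 0. At 8 weeks no member had an interval above 0 within this cluster. At 16 weeks Cd40lg had the highest ratio there, 1.15 (0.50 to 1.78), while Tnfrsf18 had -1.57 (-2.91 to -0.59) and Cd27 -0.84 (-1.86 to -0.01).

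**Figure D4:**
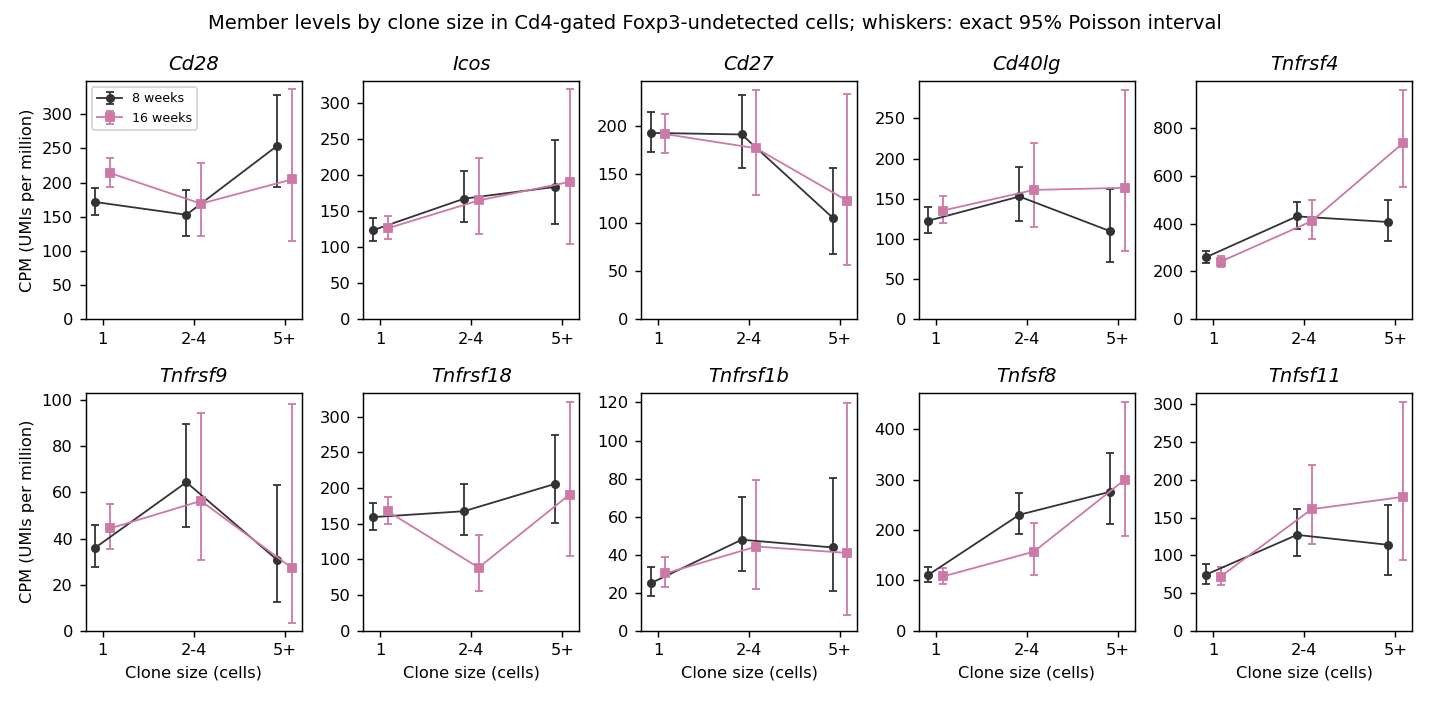
Level of each member (CPM) in Cd4-gated Foxp3-undetected cells by clone size (1, 2 to 4, and 5 or more cells) at 8 weeks (circles) and 16 weeks (squares), with exact 95% Poisson intervals. Tnfsf8 lies at 111 and 108 CPM in single-cell clones and at 276 and 300 CPM in clones of 5 or more cells, and the value of 300 becomes 95.1 CPM without 1 clone of 6 cells.

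In clones of 5 or more cells, Tnfsf8 stood at 276 CPM at 8 weeks (39 cells of 9 clones) and 300 CPM at 16 weeks (12 cells of 3 clones), and Tnfrsf4 at 407 and 737 CPM. At 16 weeks 1 clone of 6 cells held 19 of the 22 Tnfsf8 UMIs, and without it Tnfsf8 stood at 95.1 CPM (19.6 to 278, 3 UMIs), below the 108 CPM of single-cell clones. The same clone held 33 of 54 Tnfrsf4 UMIs, and without it Tnfrsf4 stood at 666 CPM (412 to 1018). Cd27 stood at 105 and 123 CPM in clones of this size, against 193 and 192 CPM in single-cell clones, and at 222 CPM (89.2 to 457) at 16 weeks without that clone. Clones differed among themselves: over the 10 clones of this size at 8 weeks, all classes together, Tnfrsf4 ranged from 0 to 895 CPM and Tnfsf8 from 0 to 587 CPM. Over the 3 clones at 16 weeks Tnfrsf4 ranged from 122 to 790 CPM and Tnfsf8 from 40.7 to 455 CPM. At 8 weeks the clone with 0 UMIs of both was the one whose 5 cells were all Cd8-gated (40501 UMIs). The largest, of 14 cells, had Cd28 at 342 CPM and Cd27 at 70.4 CPM. Cd8-gated cells of expanded clones were few, 26 and 9, and no count of members was read from them.

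Ages were compared within each gated class and in the ungated cells. In Foxp3-undetected cells 5 of 10 were higher at 16 weeks, where 43.8% of genes were, and 0 passed 1.5-fold in either direction, where 3.55% of 7330 genes passed it upward and 4.23% downward. Cd28 stood at 204 against 177 CPM, a log2 ratio of 0.21 (0.03 to 0.38). Tnfrsf4 stood at 258 against 305 CPM, a log2 ratio of -0.24 (-0.39 to -0.10), and Tnfsf8 at 126 against 147 CPM, a log2 ratio of -0.22 (-0.43 to -0.01). The other 7 had intervals that held 0. The cells of this class in naive T-like clusters were 25.7% at 8 weeks and 37.3% at 16 weeks, and those in the follicular helper T-like cluster 28.2% and 20.7%. The part of this makeup in the differences was not tested.

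In Foxp3-positive cells 5 of 10 members were higher at 16 weeks, where 43.7% of genes were, and 1, Tnfsf8, passed 1.5-fold upward, where 5.3% of 3827 genes did, and 0 passed it downward, where 5.93% did. Tnfsf8 had 40 UMIs (45.5 CPM) at 8 weeks and 63 UMIs (93.4 CPM) at 16 weeks, a log2 ratio of 1.03 (0.44 to 1.65). A single cell gave 25.0% and 20.6% of these UMIs. With regulatory cells defined by Foxp3 or by cluster the ratio was 0.37, and without the dividing cluster 0.57. Tnfrsf4 had a log2 ratio of -0.37 (-0.55 to -0.20), which was 0.62 after thinning before the gates, and the other 8 had intervals that held 0. In Cd8-gated cells 2 of 10 members were higher at 16 weeks, where 40.8% of genes were. Of the 8 with 50 or more UMIs, 0 passed 1.5-fold upward, where 3.22% of 5163 genes did, and 1 passed it downward, where 5.73% did: Tnfrsf1b, with 36 and 21 UMIs and a log2 ratio of -0.71 (-1.57 to 0.09). Cd40lg, with 20 and 10 UMIs, was too low to be counted and had the lowest log2 ratio, -0.91 (-2.20 to 0.22). All 10 intervals held 0 in this class. Without cells that held 2 or more beta chains the ratio of Tnfrsf4 was 1.015 and that of Tnfrsf9 0.40 in these cells.

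In the 698 and 755 cells with no Cd4 or Cd8 UMI, which were shallower (median 2466 and 2524 UMIs), only the members were compared between ages. No share over all genes was taken in these cells and no alternative was run for them. The values below therefore have no background, and no count of members is read from them. Tnfrsf4 stood at 283 CPM (261 to 307) at 8 weeks and 135 CPM (120 to 152) at 16 weeks, a log2 ratio of -1.07 (-1.28 to -0.86). Tnfrsf9 stood at 65.0 CPM (54.5 to 77.0) and 30 CPM (23.1 to 38.4), a log2 ratio of -1.11 (-1.57 to -0.67). Tnfsf11, Icos and Tnfrsf18 were also lower at 16 weeks, with log2 ratios of -0.60, -0.45 and -0.36, and Cd28 and Cd40lg higher, with 0.24 and 0.28, all with intervals that left out 0. Cd27, Tnfrsf1b and Tnfsf8 had intervals that held 0. Of these cells 97 at 8 weeks and 69 at 16 weeks lay in regulatory T-like clusters. The larger naive T-like cluster held 185 and 175 of them, and the smaller one 52 and 157. A cluster marked by the interferon-response genes Ifit1 and Ifit3 held 47 and 100. The part of this makeup in the differences was not tested.

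The other genes of the pathway were taken from lists. Of 17 TRAF and NF-kB signalling genes, 14 at 8 weeks and 15 at 16 weeks were higher in Foxp3-positive than in Foxp3-undetected cells, where 58.5% and 61.6% of all genes were. At least 1.5-fold was reached by 6 and 7 of them, where 9.61% and 12% of genes reached it, and the list medians were 0.40 and 0.56 on the log2 scale beside 0.08 and 0.11 over all genes. Nfkbia, the inhibitor that NF-kB itself induces, stood at 649 and 860 CPM against 325 and 421 CPM, log2 ratios of 1.00 and 1.03, and Tnfaip3, which encodes the feedback inhibitor A20, had a log2 ratio of 1.04 at 16 weeks. In Cd8-gated cells 15 of 17 and 15 of 16 were lower than in Foxp3-undetected cells. Of all genes, 45.1% and 42.7% were higher in Cd8-gated cells, so most genes were not higher there either. At least 1.5-fold lower were 2 and 3 of them, where 8.41% and 8.5% of genes were. Of 11 other costimulatory receptors with 50 or more UMIs, 6 and 8 were higher in Foxp3-positive cells, counts near the 58.5% and 61.6% of all genes, and 3 at each age at least 1.5-fold. The inhibitory receptor Ctla4 had the highest ratio of these, at 541 and 512 CPM against 130 and 163 CPM, log2 ratios of 2.05 (1.86 to 2.25) and 1.65 (1.44 to 1.86). In Cd8-gated cells Cd7 had log2 ratios of 2.95 and 2.60 and Cd226, an adhesion receptor of cytotoxic cells, 1.24 and 0.84, whereas the TNF family ligand Lta had -1.66 and -1.24. Of 5 other TNF receptors with 50 or more UMIs, 2 were higher in Foxp3-positive cells at each age, with list medians of -0.13 and -0.00, and of the other TNF family ligands 2 of 5 and 1 of 3 were, with medians of -0.19 and -0.56. Of 10 CD28 signalling genes, 3 were higher in Foxp3-positive cells at each age, with list medians of -0.15 and -0.17. Between ages Tnfaip3 had log2 ratios of 0.85 (0.56 to 1.14) in Foxp3-undetected and 0.99 (0.60 to 1.40) in Foxp3-positive cells. The ligands Cd80, Cd86 and Icosl summed to between 3.81 and 10.6 CPM in the 3 classes, and none of these 3 reached 50 UMIs in any comparison.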

How the data were processed

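The authors deposited whole-number UMI counts per gene and cell barcode, not normalized, and contig tables with counts of reads and UMIs per receptor chain. The submitters' processing notes list mm10 as the genome build and Seurat as a tool, without saying what it did. Which aligner and annotation were used is not given in the sources used here, nor is a barcode filter. The 10 members and all gene lists were chosen with earlier results of these data known.

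A cell was kept at 500 or more genes if at most 10% of its UMIs were mitochondrial (1875 of 2043 and 1934 of 2107). Clustering used Python 3.11.15, scanpy 1.11.5 and leidenalg 0.10.2 (2000 variable genes without the members, 30 principal components, 15 neighbours, resolution 1). A cluster was named where 3 or more listed markers were among its top 50 genes by fold that 10% or more of its cells held, and no other type had more in the top 10. That rule was set after the clusters were seen. Clusters led by acinar or B cell genes were left out. No doublet caller was run. Of cells with a beta chain, 12.8% and 14.3% had 2 or more, and these cells were kept in the values reported and left out in an alternative.

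UMIs were summed per class and age. Levels (CPM) have exact Poisson intervals, shares exact Clopper-Pearson intervals, and log2 ratios, with 0.5 UMIs added to each sum, exact conditional intervals, all at 95%. Cells are not replicates, and the intervals cover counting error only. For a count of 0, 3 UMIs gave the upper limit. Intervals and ratios were tested on simulated Poisson counts with known fold changes. Those counts hold no spread between cells or clones, so the check says nothing of such spread in the data. Named genes were all members, the 3 highest and 3 lowest listed pathway genes per comparison, and the 3 genes nearest each member, of which those described are a part. Genes at 50 or more UMIs over both sides of a comparison were counted against 1.5-fold. Alternatives covered cell filters, weights, gates, depth and the definition of clones. Gene coordinates came from GENCODE M21 and promoter sequences from RefSeq (GRCm38.p6).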

Additional observations from a re-analysis of the deposited data

Results flagged for a closer look

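Tnfsf8 differed between ages in opposite directions in the 2 Cd4-gated classes: the log2 ratio of 16 over 8 weeks was -0.22 in Foxp3-undetected cells and 1.03 in Foxp3-positive cells. With 1 library per age the difference between these ratios was not tested.

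UMIs of the members were also present in cells left out of all comparisons. In the acinar-like cluster (91 cells, 314297 UMIs at both ages together) there were 38 UMIs of Cd28, 24 of Icos, 52 of Cd27, 36 of Cd40lg, 41 of Tnfrsf4, 26 of Tnfrsf9, 47 of Tnfrsf18, 11 of Tnfrsf1b, 14 of Tnfsf8 and 13 of Tnfsf11, all above the limit of 3 UMIs that a count of 0 allows. A Cd3e UMI was found in 87 of these cells and paired receptor chains in 60. In the B cell-like cluster (11 cells, 84720 UMIs) there were 5 UMIs of Cd28, 6 of Cd27, 5 of Cd40lg, 16 of Tnfrsf4, 8 of Tnfrsf18, 19 of Tnfsf8 and 12 of Tnfsf11, and 5 of the 11 cells had a Cd3e UMI. The 12 Tnfsf11 UMIs came from 1 cell.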

How the results depend on the processing

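No paired analysis was possible because the 2 ages had 1 library each and so form no pairs, and no replicate could be left out. Classes and clone sizes could be paired within the 2 libraries and were not tested that way. Of 1060 log2 ratios recomputed under alternatives, 951 stayed within the counting interval of the reported value and 103 moved out of it. The other 6 were reversed, a label given only where the reported ratio was past 1.5-fold, as for 470 of the 1060. Smaller ratios that changed sign are among the 951 and the 103. An example is Tnfsf11 in Foxp3-positive over Foxp3-undetected cells at 16 weeks, from -0.53 to 0.13 with each cell given equal weight. The number of members higher in Foxp3-positive than Foxp3-undetected cells stayed between 6 and 7 of 10 under every alternative run, at both ages. Higher members in Cd8-gated cells at 16 weeks numbered 1 after thinning to 1700 UMIs before gating, against 2. For 16 over 8 weeks in Foxp3-undetected cells, reported as 5, the number was 3 with equal weight per cell, with the regulatory class from Foxp3 or cluster, and without the dividing cluster, and 2 after thinning. In Cd8-gated cells, reported as 2, it was 4 with equal weight, without ribosomal, mitochondrial and acinar genes, after thinning and without the dividing cluster, and 5 without cells with 2 or more beta chains. Counts over ages therefore carry no direction. Expanded against single-cell clones at 8 weeks, reported as 9, gave 2 within the follicular helper T-like cluster, where no share over all genes was taken. There the log2 ratios of Tnfrsf4, Tnfrsf9, Tnfrsf1b and Tnfsf11 were reversed, at -0.69, -0.53, -0.20 and -0.0175. After thinning, Tnfrsf9 in Cd8-gated against Foxp3-undetected cells at 16 weeks was reversed at -0.17, and Cd40lg in Cd8-gated cells between ages at 0.84. The cause was not tested. Thinning before gating, leaving out the dividing cluster staying within the follicular helper T-like cluster and leaving out single large clones were chosen after seeing the data. Of 80 shares of cells with a UMI, 77 were lower at 1000 than at 1700 UMIs. Among the sums per class and age, the fewest UMIs were those of Cd40lg, Tnfsf11 and Tnfrsf1b in Cd8-gated cells, with 10 to 36 UMIs each.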
